A study of Mus musculus with 140 samples.

Results

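Glomeruli of mice with abdominal sepsis were set against glomeruli of operated mice without sepsis, 24 h into the experiment. The 8 libraries were chosen by their labels (compartment, operation and time) from 140 libraries of 28 mice. The 4 CLP libraries came from mice in which the cecum was ligated and punctured, an operation that lets gut bacteria into the abdomen, and the 4 sham libraries came from mice that had the operation without that injury. All 8 were male wild-type C57BL6/OlaHsd mice, and their age is not given in the sources used here. Each library holds the RNA of glomeruli cut by laser microdissection from the kidney of 1 mouse, so n = 4 in each group. Libraries were made with Lexogen QuantSeq, which reads the 3′ end of a transcript, so a count does not grow with transcript length. For comparison, glomeruli of healthy mice (0 h) and of CLP and sham mice at 4 and 72 h, and arterioles, peritubular capillaries, post-capillary venules and whole kidney of the same 24 h mice, were used.

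A glomerulus is a tuft of fenestrated capillaries held together by mesangial cells and wrapped by podocytes, whose foot processes and shared basement membrane with the endothelium form the filter of the kidney. In sepsis its endothelium meets bacterial products, cytokines, activated leukocytes and coagulation factors directly from the blood. Endothelial cells answer such signals by displaying adhesion molecules and secreting chemokines, while many epithelial cells make acute-phase proteins, which bind iron, lipid or microbial products or feed the complement cascade.

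The CLP libraries held 5.88 to 11.48 M counts and the sham libraries 8.01 to 12.52 M. Between 8870 and 12290 genes were detected in CLP glomeruli, against 11655 to 12726 in sham glomeruli, and the mitochondrial genome took 4.25 to 6.89% of counts in CLP libraries and 6.63 to 9.79% in sham libraries. CLP replicate 3 had the fewest counts and the fewest genes, and it stood apart on the first principal component (31.2% of the variance over 9368 genes), while CLP replicate 2 stood apart on the second (20.5%). The mean correlation of a library with the others of its group was 0.42 to 0.488 for CLP and 0.535 to 0.561 for sham, so CLP glomeruli were the more variable group. The mean correlation of a CLP library with the sham libraries was 0.43 to 0.54, and CLP replicates 1, 3 and 4 correlated better with sham libraries (0.54, 0.43 and 0.5) than with their own group (0.476, 0.42 and 0.488). The labelled compartment was checked by its markers, and the 20 podocyte genes summed to 9529 to 14270 CPM (counts scaled to a common library total) in CLP glomeruli and 11580 to 16710 CPM in sham glomeruli, against 497.2 to 864.6 CPM in whole kidney of the CLP mice and 539.2 to 717.3 CPM in whole kidney of the sham mice. As in any bulk sample, fewer cells of a type and less RNA per cell cannot be told apart. The groups differed in depth, in genes detected and in mitochondrial share, and their part in the results below was not tested.

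Of 14586 genes tested, 20 passed between CLP and sham glomeruli (0.137%), 14 higher in CLP (0.0960%) and 6 lower (0.0411%). The higher genes included secreted proteins of the acute-phase response (Saa3, C3, Cp), the endothelial adhesion molecule Sele, the neutrophil granule gene Ngp and the stress gene Nupr1. The lower ones included genes of proximal tubule metabolism and uptake (Acsm1, Slc17a3, Nudt19, Lrp2), the MHC class II gene H2-Aa and the secreted factor Angptl2. A gene passed when its Benjamini-Hochberg adjusted p, from edgeR's quasi-likelihood test over the 28 glomerular libraries, was under 0.05. Unadjusted p was under 0.05 for 1803 genes (12.4%). Without regard to any test, all 4 CLP values lay above all 4 sham values for 210 genes (1.44%) and below them for 359 (2.46%). The median log2 fold change over all genes tested was -0.04. The calls depended on which libraries shared the estimate of spread. With the 8 libraries of 24 h alone, C3, Cp, Nupr1 and Saa3 kept their calls, the other 14 passing genes with a value lost them (adjusted p 0.122 to 0.52), and Sele and Ngp were not tested. With the 16 libraries of 24 and 72 h, 7 of the 20 kept their calls (Adam15, Angptl2, C3, Ifitm3, Ngp, Nupr1 and Wwp2). DESeq2 called 6.67% of all genes tested and limma voom 0.418%, the shares against which their counts below are to be read. Counts of list members by unadjusted p or by non-overlapping groups are likewise to be read against the 12.4%, 1.44% and 2.46% above. The gene lists were chosen with earlier results of these data known, so the direction of a list is not independent evidence. A gene at 0 in a whole group reached the filter on low counts only through other libraries. The direction of such a gene is not independent of that filter. Below, CPM values are scaled by the trimmed mean of M-values (TMM), values within a group are in the order of replicates 1 to 4, fold changes are fitted log2 values of CLP over sham ± standard error, and adjusted p is that of edgeR's quasi-likelihood test with Benjamini-Hochberg adjustment.

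**Figure D1:**
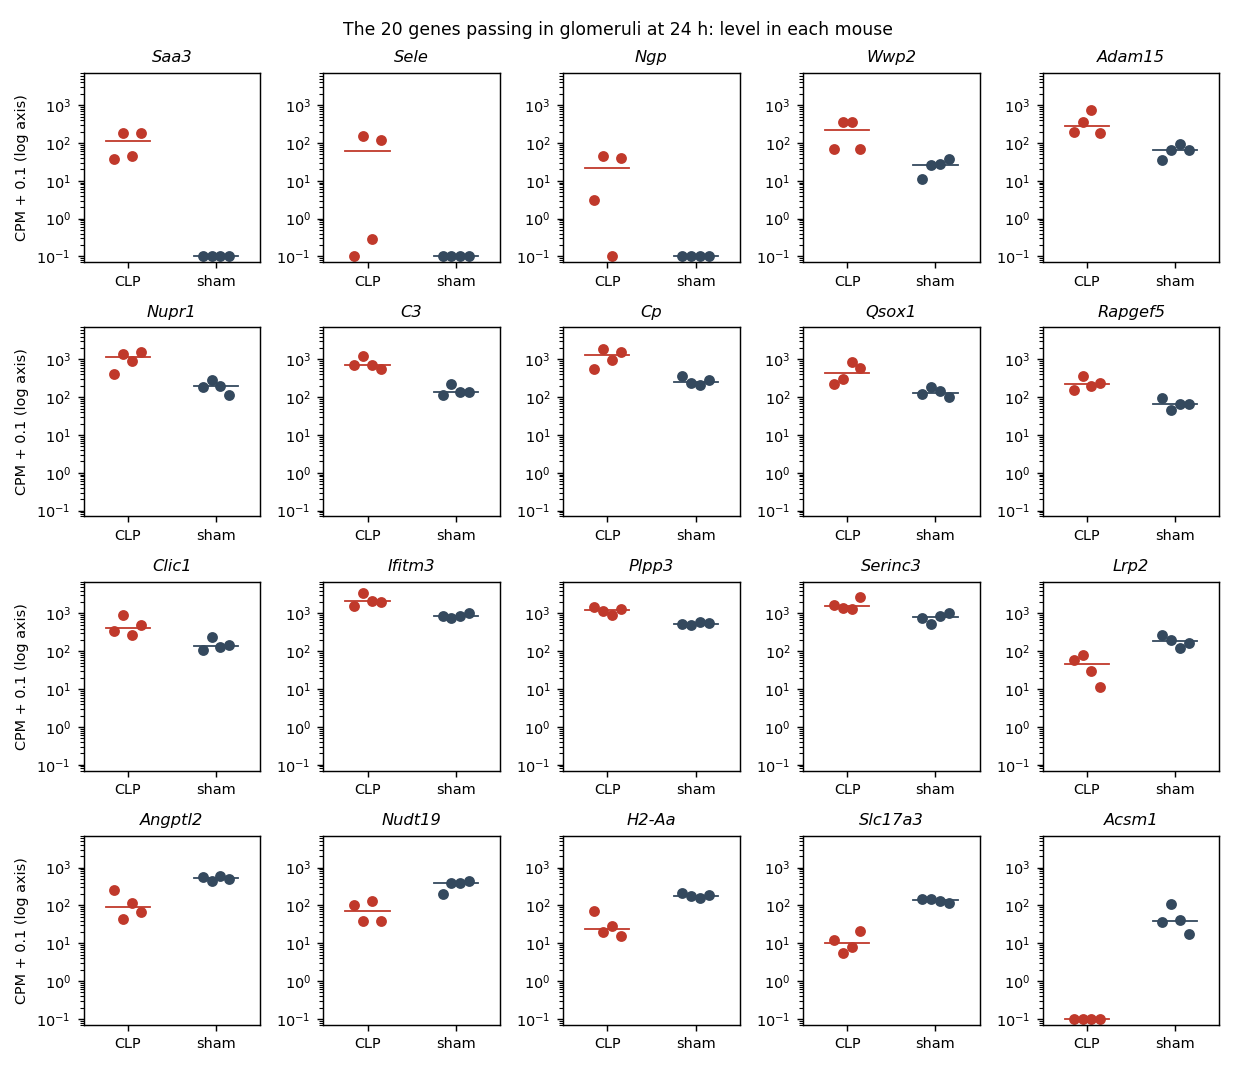
Level of the 20 passing genes in each mouse, as CPM + 0.1 on a log axis; each point is 1 glomerular library (CLP left, sham right) and each line is the group median. The groups do not overlap except for Sele and Ngp, in which 1 CLP library is at 0, and Acsm1 is at 0 in all CLP libraries.

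Of 16 measured acute-phase and complement genes, 3 passed, all of them higher in CLP glomeruli. Saa3 encodes a serum amyloid A made outside the liver (ENSMUSG00000040026, GRCm38 chr7:46711998-46715700), and it had 37.8, 186, 44.4 and 184 CPM in CLP glomeruli, against 0 CPM in each of the 4 sham glomeruli. Every CLP mouse was above every sham mouse, and Saa3 was at least 409-fold higher in CLP when a sham library is set to its floor of 3 counts (adjusted p = 0.0415). C3, the central component of complement (ENSMUSG00000024164, chr17:57203970-57228136), had 719, 1190, 701 and 565 CPM in CLP glomeruli and 116, 228, 139 and 136 CPM in sham glomeruli. The groups were well separated, with a log2 fold change of 2.36 ± 0.47 (adjusted p = 0.0115). Cp encodes ceruloplasmin, the copper-carrying ferroxidase (ENSMUSG00000003617, chr3:19957054-20009145), and had 551, 1830, 982 and 1590 CPM in CLP glomeruli against 364, 230, 207 and 285 CPM in sham glomeruli. Again no CLP mouse fell within the sham range, and the change was 2.19 ± 0.40 (adjusted p = 0.00432). Cp passed with any 1 of the 8 mice left out but not with the 16 libraries of 24 and 72 h (0.0973). C3 lost its call without CLP replicate 2 (adjusted p = 0.0625) or sham replicate 1 (0.0946), 3 (0.0754) or 4 (0.0742). Saa3 kept its call without CLP replicate 1 and lost it without any other mouse, with adjusted p between 0.0535 and 0.172, and it lost it with the 16 libraries of 24 and 72 h (0.562).

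Below are the promoters of these 3 genes and of Sele, the adhesion molecule that passed with them, as RefSeq gives them on GRCm38.p6, 250 bases before to 50 after the start, printed 5′ to 3′ on the strand of the gene. They are shown because these genes lead the secreted and endothelial genes that passed, and capitals mark a match to 1 of 3 motifs searched on both strands: TTGCNNAA (the core bound by C/EBP factors), GGG and TTTCC separated by 2 bases (NF-kB) and TTCNNNGAA (STAT).
Saa3 (chr7:46715627-46715926, minus strand): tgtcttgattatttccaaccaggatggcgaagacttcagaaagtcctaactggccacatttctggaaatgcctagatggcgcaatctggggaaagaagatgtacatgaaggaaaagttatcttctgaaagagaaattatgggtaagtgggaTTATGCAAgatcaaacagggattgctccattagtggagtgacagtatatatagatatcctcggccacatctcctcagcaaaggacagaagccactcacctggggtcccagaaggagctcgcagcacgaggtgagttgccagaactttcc
C3 (chr17:57228087-57228386, minus strand): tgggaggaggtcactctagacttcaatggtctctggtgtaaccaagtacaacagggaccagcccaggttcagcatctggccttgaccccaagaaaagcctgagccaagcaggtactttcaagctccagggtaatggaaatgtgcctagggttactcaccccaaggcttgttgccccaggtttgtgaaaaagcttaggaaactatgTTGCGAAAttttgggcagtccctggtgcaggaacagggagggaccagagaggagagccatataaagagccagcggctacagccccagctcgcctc
Cp (chr3:19956999-19957298, plus strand): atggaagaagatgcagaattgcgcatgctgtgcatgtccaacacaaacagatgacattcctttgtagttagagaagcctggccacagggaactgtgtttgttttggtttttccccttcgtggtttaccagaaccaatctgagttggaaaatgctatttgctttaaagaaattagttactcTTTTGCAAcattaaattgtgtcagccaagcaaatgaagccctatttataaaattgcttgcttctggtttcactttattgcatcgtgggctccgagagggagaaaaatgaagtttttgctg
Sele (chr1:164047984-164048283, plus strand): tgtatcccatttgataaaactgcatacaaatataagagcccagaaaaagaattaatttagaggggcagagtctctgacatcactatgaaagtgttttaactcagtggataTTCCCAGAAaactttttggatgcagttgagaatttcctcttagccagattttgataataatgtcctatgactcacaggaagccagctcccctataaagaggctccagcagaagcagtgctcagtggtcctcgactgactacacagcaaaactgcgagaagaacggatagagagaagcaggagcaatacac
Saa3 held the C/EBP core on the opposite strand, first base 99 bases before the start, C3 held it 45 bases before the start, and the downstream of the 2 RefSeq starts of Cp held it on the opposite strand 70 bases before the start. The upstream Cp window, which overlaps the printed one, held none of the 3 motifs, and neither did the Fgg promoter (chr3:83007474-83007773, plus strand). Sele held a STAT match 140 bases before the start. Over 32851 RefSeq promoters of the same length, 10.8% held the C/EBP core, 1.63% the NF-kB motif and 8.3% the STAT motif. A match describes the letters of the window only. Sites spelled otherwise than the 3 motifs, NF-kB sites among them, would not be marked and may overlap a marked stretch.

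Other acute-phase genes had higher values without passing. Serpina3n, an inhibitor of serine proteases, had 8.43, 54.4, 34.2 and 106 CPM in CLP glomeruli against 0.0815, 0, 0 and 0.0802 CPM in sham glomeruli. Its count ratio was 1140, with an interval of 314 to 9390 that covers counting error only, and it did not pass (adjusted p = 0.0869). Lcn2, a secreted protein that binds bacterial siderophores, had 229, 261, 294 and 460 CPM in CLP glomeruli and 0, 0, 30.1 and 17.3 CPM in sham glomeruli. The Lcn2 groups did not overlap, but the fitted change of 4.70 ± 1.47 did not pass (adjusted p = 0.314). Over the whole list, 14 of 16 measured members had positive log2 fold changes with a median of 2.28, against -0.04 for all genes tested. CLP values lay wholly above sham values for 7 of them, against 1.44% of all genes tested. The summed list level was 1955, 4595, 3060 and 3574 CPM in CLP glomeruli and 724.6, 687.4, 508.9 and 695.8 CPM in sham glomeruli, so each CLP mouse was above each sham mouse. The median lay between 1.96 (without CLP replicate 4) and 3.20 (without sham replicate 2) with 1 mouse left out. DESeq2 called 9 members and limma voom with quality weights called 5.

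Fibrinogen is an acute-phase protein and also the substrate of clotting. Fgg, its gamma chain (ENSMUSG00000033860, chr3:83007724-83015049), had 51.9, 79.3, 81 and 157 CPM in CLP glomeruli against 0 CPM in each sham library. All CLP mice were therefore above all sham mice, by at least 334-fold against the floor of 3 counts per library, but the gene did not pass (adjusted p = 0.134). When only the 8 libraries of 24 h were fitted, the adjusted p of Fgg was 0.00628, in a fit that ended 14 of the printed calls, and with the 16 libraries of 24 and 72 h it was 0.149. The alpha and beta chains were less even: Fgb had 0, 1.4, 144 and 148 CPM in CLP glomeruli and 14.1, 0, 7.13 and 8.1 CPM in sham glomeruli, and Fga had 4.58, 0.623, 11.2 and 194 CPM in CLP against 12.8, 0, 0 and 16 CPM in sham. In both of these the groups overlapped, and neither passed (adjusted p = 0.705 for Fgb and 0.714 for Fga).

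The summed level of neutrophil transcripts was higher in every CLP glomerular library than in any sham one, and 1 gene of the list passed. Ngp, a granule protein of maturing neutrophils (ENSMUSG00000032484, chr9:110419747-110423012), had 2.95, 46.6, 0 and 40.1 CPM in CLP glomeruli and 0 CPM in all sham glomeruli. CLP replicate 3 was at 0 like the sham mice, so the groups overlapped, and the CLP mean was at least 81.1-fold above the sham floor (adjusted p = 0.00188). Ngp passed with each of the 8 mice left out in turn (highest adjusted p = 0.0155). S100a8 and S100a9 encode the calprotectin subunits that fill the neutrophil cytosol, and they are named here after their values were seen. S100a8 had 606, 1470, 591 and 685 CPM in CLP glomeruli against 84.8, 41.3, 146 and 105 CPM in sham glomeruli, and S100a9 had 199, 832, 616 and 468 CPM in CLP against 36, 0.263, 20.7 and 62 CPM in sham. Neither pair of groups overlapped, but with log2 fold changes of 3.15 ± 0.89 and 4.15 ± 1.51 neither passed (adjusted p = 0.235 for S100a8 and 0.332 for S100a9). Of the 13 measured neutrophil genes, 12 had positive fold changes, and 5 had non-overlapping groups upward, against 1.44% of all genes tested. An unadjusted p was under 0.05 upward for 10 and downward for 1, against 12.4% of all genes in either direction. Only Ngp passed. Retnlg had 11.7, 83.5, 0 and 16.8 CPM in CLP glomeruli, against 0.658 CPM in sham replicate 2 and 0 in the other sham libraries, and Mmp9, the gelatinase of neutrophil granules, had 33.9, 14.2, 15.9 and 0.6 CPM in CLP against 0 CPM in every sham library (adjusted p = 0.105 for both). The median fitted change was 6.32, or 4.70 with the 7 genes that were at 0 in a whole group set to their bound. Those 7 genes reached the filter on low counts only through other libraries. Their directions, and the tallies above that include them, are therefore not independent of the filter. The neutrophil sum was 1131, 2822, 1603 and 1778 CPM in CLP glomeruli and 133.3, 42.24, 230.3 and 191.1 CPM in sham glomeruli. DESeq2 called 10 of the 13 and limma voom called 2. These transcripts moved together with the acute-phase genes above, with Lcn2 on both lists, and their part in those results was not tested.

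**Figure D2:**
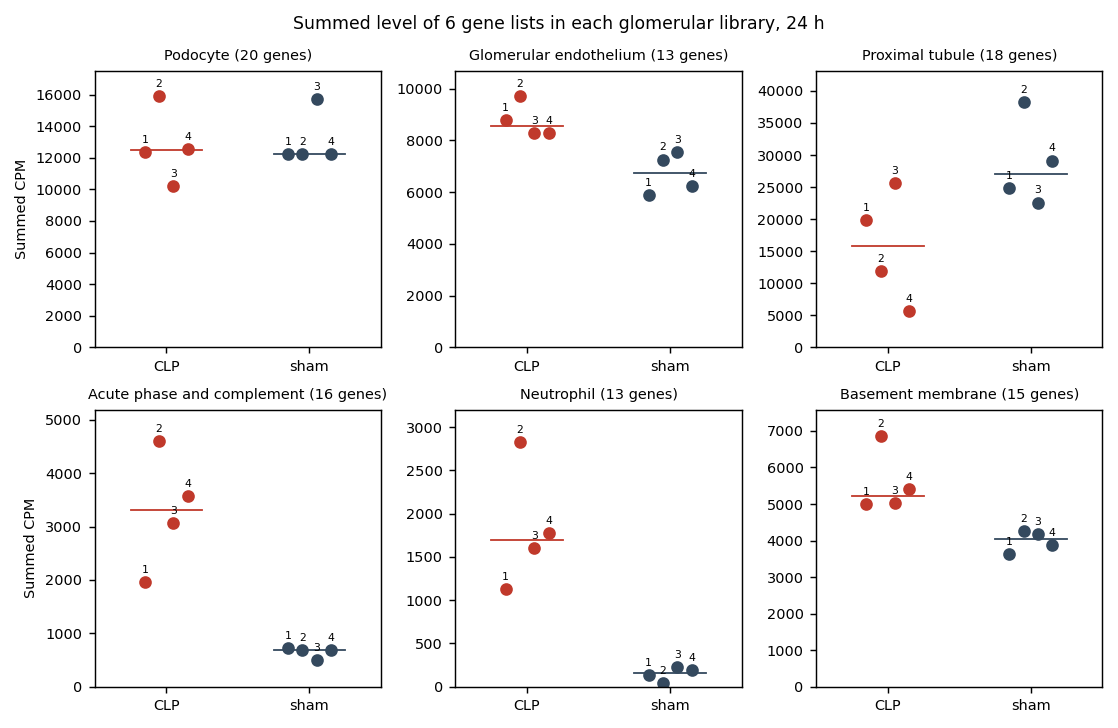
Summed CPM of 6 gene lists in each glomerular library, CLP left and sham right, with replicate numbers beside the points and the group median as a line; each axis starts at 0. The CLP points lie above all sham points for acute phase and complement, neutrophil, basement membrane and glomerular endothelium, and they overlap the sham points for podocyte and proximal tubule.

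E-selectin was higher in CLP glomeruli, unevenly between mice. Sele, the adhesion molecule on which leukocytes roll over activated endothelium (ENSMUSG00000026582, chr1:164048234-164057677), had 0, 157, 0.183 and 120 CPM in CLP glomeruli and 0 CPM in each sham library. CLP replicates 2 and 4 were high, replicate 3 had a trace, and replicate 1 did not differ from sham, so the groups overlapped, while the CLP mean was at least 251-fold above the sham floor (adjusted p = 0.0112). Sele lost its call without sham replicate 1 (adjusted p = 0.0628), 3 (0.0710) or 4 (0.0668), with the 16 libraries of 24 and 72 h (0.374) and with limma voom (0.171). Selp, which encodes P-selectin of endothelium and platelets, had 26.5 and 19.5 CPM in the same CLP replicates 2 and 4 and was at 0 in the other 6 libraries (adjusted p = 0.315). Icam1, the ligand of leukocyte integrins, had 143, 43.3, 106 and 185 CPM in CLP glomeruli against 28.3, 25, 57.9 and 2.33 CPM in sham glomeruli, and the groups overlapped in 1 library of each. Its change of 2.07 ± 0.82 did not pass (adjusted p = 0.332), nor did the 0.81 ± 0.67 of Vcam1 (adjusted p = 0.817). Of 13 measured leukocyte adhesion genes 10 had positive fold changes (median 0.74), and Sele alone passed. The median was 0.47 without sham replicate 3 and 1.16 without sham replicate 4.

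Chemokines that draw neutrophils were at 0 in sham glomeruli. Cxcl1 had 8.02, 38, 0 and 279 CPM in CLP glomeruli, Cxcl2 had 0.245, 20.1, 0.366 and 55.1 CPM and Cxcl5 had 11.1, 7.79, 52.5 and 56.9 CPM, against 0 CPM in every sham library for all 3. CLP replicate 4 was highest for each, and CLP replicate 3 overlapped the sham mice for Cxcl1. They missed the threshold, with adjusted p of 0.0692 for Cxcl1, 0.0905 for Cxcl2 and 0.165 for Cxcl5, and against the sham floor they were at least 294-fold, 68.6-fold and 116-fold higher. Cxcl12, a homeostatic chemokine, ran the other way with 85.4, 34.1, 41.5 and 2.7 CPM in CLP glomeruli and 83.7, 212, 149 and 237 CPM in sham glomeruli (-2.05 ± 0.57, adjusted p = 0.165). Of 19 measured cytokines and chemokines none passed in edgeR's quasi-likelihood test, 13 had positive fold changes (median 2.55), 8 had an unadjusted p under 0.05 upward and 1 downward, DESeq2 called 6 and limma voom called 2. With 1 mouse left out this median lay between 1.74 (without CLP replicate 3) and 3.54 (without sham replicate 1). Of the 19 genes, 9 were at 0 in a whole group, and their directions are likewise not independent of the filter on low counts.

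The remaining higher genes were expressed in every library of both groups. Nupr1, a small chromatin protein induced by many kinds of cell stress (ENSMUSG00000030717, chr7:126623249-126630861), had 416, 1380, 923 and 1550 CPM in CLP glomeruli and 183, 276, 201 and 112 CPM in sham glomeruli. The lowest CLP mouse exceeded the highest sham mouse, with a log2 fold change of 2.47 ± 0.36 and the smallest adjusted p of the comparison (0.000186). Atf5, a transcription factor of the integrated stress response, had 246, 726, 305 and 397 CPM in CLP glomeruli against 24.1, 69.7, 97.9 and 59.4 CPM in sham glomeruli, and its non-overlapping change of 2.74 ± 0.64 missed the threshold (adjusted p = 0.0645). The related factor Atf4 had a change of 1.25 ± 0.41 (adjusted p = 0.314), and 11 of 14 measured genes of the unfolded protein and integrated stress responses had positive fold changes with a median of 0.58. None of these 14 passed in edgeR's quasi-likelihood test, 3 had an unadjusted p under 0.05, DESeq2 called 3 and limma voom called 1. Their median was 0.26 without CLP replicate 2 and 1.19 without sham replicate 1.

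Ifitm3, an interferon-inducible membrane protein that blocks virus entry (ENSMUSG00000025492, chr7:141009586-141010770), had 1600, 3400, 2120 and 2060 CPM in CLP glomeruli and 864, 781, 856 and 1000 CPM in sham glomeruli. The change of 1.39 ± 0.25 passed (adjusted p = 0.00432), and no CLP value fell within the sham range. It was the only 1 of 22 measured interferon response genes to pass or to have an unadjusted p under 0.05. The others were divided, since 13 of the 22 had positive and 9 negative fold changes, with a median of 0.25, which was 0 without CLP replicate 4 and 0.14 without sham replicate 2. Nupr1 and Ifitm3 passed with each of the 8 mice left out in turn. Both lost their calls with limma voom (0.0846 for Nupr1 and 0.0808 for Ifitm3), and Ifitm3 also with the 8 libraries of 24 h alone (0.194).

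Wwp2, a ubiquitin ligase (ENSMUSG00000031930, chr8:107436365-107558595), had 71.4, 363, 365 and 71.1 CPM in CLP glomeruli and 11, 25.4, 27.9 and 37.1 CPM in sham glomeruli. Adam15, a membrane-bound metalloprotease-disintegrin (ENSMUSG00000028041, chr3:89338542-89349996), had 195, 358, 755 and 180 CPM in CLP glomeruli and 35.9, 65, 96.6 and 64.1 CPM in sham glomeruli. In both genes the CLP mice split into 2 higher and 2 lower values, all above the sham mice, and the changes were 3.10 ± 0.59 for Wwp2 (adjusted p = 0.00765) and 2.51 ± 0.45 for Adam15 (adjusted p = 0.00432). The call for Wwp2 was lost without CLP replicate 2 (0.0515) or sham replicate 1 (0.0628). Without CLP replicate 3 the change of Adam15 was 1.9 and missed the threshold (0.0524).

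Another 5 genes with broad cellular roles passed upward. Qsox1, a sulfhydryl oxidase that forms disulfide bonds in secreted proteins, had 219 to 836 CPM in CLP glomeruli and 101 to 183 CPM in sham glomeruli (1.83 ± 0.39, adjusted p = 0.0243). Rapgef5, an exchange factor of Rap GTPases, had 150 to 359 CPM against 45 to 96.7 CPM in sham (1.77 ± 0.40, adjusted p = 0.0415), and Clic1, a chloride channel protein, had 276 to 885 CPM against 107 to 234 CPM in sham (1.68 ± 0.36, adjusted p = 0.0254). Plpp3, a membrane phosphatase that degrades lysophosphatidic acid, had 923 to 1530 CPM in CLP glomeruli against 505 to 588 CPM in sham glomeruli (1.19 ± 0.26, adjusted p = 0.0279). Serinc3, a multipass membrane protein, had 1330 to 2780 CPM in CLP glomeruli against 537 to 1010 CPM in sham glomeruli (1.18 ± 0.27, adjusted p = 0.0436). The groups did not overlap in any of these genes, but each call ended when some mice were left out. For Qsox1 these were CLP replicates 3 (0.143) and 4 (0.0626) and sham replicates 1 (0.139), 3 (0.0761) and 4 (0.145). For Clic1 they were CLP replicate 2 (0.291) and sham replicates 1 (0.184), 3 (0.123) and 4 (0.108). For Rapgef5 they were CLP replicates 2 (0.235) and 4 (0.0662) and each sham mouse (0.0628 to 0.177), and for Serinc3 CLP replicate 4 (0.234) and each sham mouse (0.0673 to 0.191). Plpp3 kept its call only without CLP replicate 3 and was otherwise between 0.0515 and 0.148.

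Of the 6 lower genes, 4 are known from the proximal tubule. Acsm1, a mitochondrial medium-chain acyl-CoA synthetase (ENSMUSG00000033533, chr7:119607026-119662515), was at 0 in all 4 CLP glomeruli, against 35.8, 110, 40.5 and 17.1 CPM in sham glomeruli. It was at least 130-fold lower in CLP, with the CLP libraries set to their floor of 3 counts (adjusted p = 0.0135). Slc17a3, an organic anion transporter of the tubule (ENSMUSG00000036083, chr13:23839434-23860716), had 12.4, 5.45, 7.86 and 21.1 CPM in CLP glomeruli and 145, 147, 128 and 114 CPM in sham glomeruli. The sham mice were closely spaced and every CLP mouse was far below them, with a change of -3.51 ± 0.67 (adjusted p = 0.00765). Nudt19, a hydrolase of coenzyme A in kidney peroxisomes (ENSMUSG00000034875, chr7:35547185-35556304), had 104, 39.9, 134 and 37.8 CPM in CLP glomeruli against 198, 397, 394 and 447 CPM in sham glomeruli (-2.18 ± 0.47, adjusted p = 0.0259). Lrp2, which encodes megalin, the receptor by which proximal tubule cells take up filtered protein (ENSMUSG00000027070, chr2:69424340-69586065), had 59, 81.6, 30.4 and 11.4 CPM in CLP glomeruli and 263, 205, 123 and 167 CPM in sham glomeruli (-2.06 ± 0.45, adjusted p = 0.0387). The groups did not overlap in any of these 4 genes. Acsm1 lost its call without CLP replicate 2 (0.0515) or 4 (0.0560), and Slc17a3 without CLP replicate 2 (0.0515). Nudt19 lost it without CLP replicates 2 (0.132) or 4 (0.103) or sham replicates 2 (0.0807), 3 (0.0761) or 4 (0.107), and Lrp2 without CLP replicates 3 (0.106) or 4 (0.128) or sham replicates 1 (0.209), 2 (0.0985) or 4 (0.0779).

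The wider tubular lists moved with these genes. Of 18 measured proximal tubule markers 17 had negative fold changes with a median of -1.27, 9 had an unadjusted p under 0.05 downward, and Lrp2 alone passed. Their summed level was 19820, 11850, 25610 and 5622 CPM in CLP glomeruli and 24790, 38330, 22600 and 29150 CPM in sham glomeruli, so 3 CLP mice were below all sham mice and CLP replicate 3 lay within the sham range. The sum also varied widely among sham glomeruli of 72 h, from 6347 to 31880 CPM, against 7654 to 24480 CPM in CLP glomeruli of that time. At 4 h it was 21410 to 29850 CPM in sham and 14880 to 32410 CPM in CLP glomeruli. The list median was -0.10 at 4 h and -0.15 at 72 h. Slc34a1, the phosphate transporter, had 989, 536, 1390 and 181 CPM in CLP glomeruli against 2580, 3540, 1620 and 2120 CPM in sham glomeruli (-1.67 ± 0.59, adjusted p = 0.332). Slc5a2, the glucose transporter SGLT2, had a change of -1.40 ± 0.52 (adjusted p = 0.332), and Keg1, a kidney-enriched gene, a change of -2.74 ± 0.62 (adjusted p = 0.0688). Markers of the loop of Henle, distal tubule and collecting duct had negative fold changes in 11 of 12 measured genes (median -1.21), and none passed in edgeR's quasi-likelihood test, with 3 below an unadjusted p of 0.05, 1 called by DESeq2 and none by limma voom. In whole kidney of the same mice, where tubules make up most of the tissue, the proximal tubule markers summed to 52930 to 65760 CPM in CLP mice and 72830 to 79990 CPM in sham mice. The distal markers had no common direction in the other samples. They summed to 4517 to 5963 CPM in whole kidney of CLP mice and 4549 to 5582 CPM in that of sham mice, and their median sums were 6588 CPM in CLP peritubular capillaries against 4163 CPM in sham, 3889 CPM in CLP venules against 3069 CPM in sham, and 307.1 CPM in CLP arterioles against 480.7 CPM in sham. In whole kidney, Slc17a3 had 185 ± 58.1 CPM in CLP and 570 ± 31.8 CPM in sham mice, Nudt19 676 ± 36.6 and 1780 ± 380 CPM, and Acsm1 78.3 ± 13.3 and 136 ± 10.5 CPM (SD, n = 4 each). How much tubule each microdissected sample held is not given in the labels, and the part of tubular RNA in the 4 calls was not tested. The median of the proximal tubule list lay between -1.74 (without CLP replicate 1) and -0.95 (without CLP replicate 2) with 1 mouse left out, and that of the distal list between -1.78 (without CLP replicate 3) and -0.94 (without CLP replicate 2).

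H2-Aa encodes the alpha chain of an MHC class II molecule, which presents antigen to helper T cells (ENSMUSG00000036594, chr17:34282744-34287823). It had 73.2, 19.2, 28 and 15.7 CPM in CLP glomeruli and 211, 174, 159 and 191 CPM in sham glomeruli. All CLP mice were below all sham mice, with a change of -2.43 ± 0.54 (adjusted p = 0.0415). H2-Ab1, the beta chain of the same molecule, had 55.5, 26.2, 161 and 17.3 CPM in CLP glomeruli and 159, 223, 126 and 272 CPM in sham glomeruli, and did not pass (-1.58 ± 0.53, adjusted p = 0.314), nor did H2-Eb1 (-1.33 ± 0.50, adjusted p = 0.332) or Cd74, the invariant chain (-1.15 ± 0.70, adjusted p = 0.586). Of 8 measured class II genes 7 had negative fold changes, with a median of -1.30; this list had been written after such genes were seen to move in these samples, so its direction is not independent evidence. The call for H2-Aa held without CLP replicate 1, where the change was -3.15, and was lost without any other mouse (0.0761 to 0.171). In whole kidney H2-Aa had 39.2 ± 3.72 CPM in CLP mice and 121 ± 24 CPM in sham mice. Macrophage and monocyte markers summed to 263.7 to 770.9 CPM in CLP glomeruli and 387.6 to 572 CPM in sham glomeruli, and lymphocyte markers to 0 to 4.498 CPM in CLP and 9.621 to 44.47 CPM in sham glomeruli. The lymphocyte median was -5.96 over 7 genes, -2.14 with groups at 0 set to their bound and -2.53 without sham replicate 2. The T cell genes Cd3d, Cd4 and Cd8a did not reach the count filter, and the part of leukocyte numbers in the H2-Aa result was not tested.

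Angptl2, a secreted angiopoietin-like protein (ENSMUSG00000004105, chr2:33216069-33247717), was lower in CLP glomeruli. It had 257, 43.9, 115 and 68 CPM in CLP glomeruli and 560, 439, 594 and 500 CPM in sham glomeruli. Every CLP mouse was below every sham mouse, with a change of -2.11 ± 0.39 (adjusted p = 0.00516), and the gene passed with each of the 8 mice left out in turn. It lost its call with the 8 libraries of 24 h alone (adjusted p = 0.21). The change was -2.81 without CLP replicate 1. Its levels were far lower in whole kidney and venules, with 12.6 ± 2.86 CPM in whole kidney of CLP mice and 27.6 ± 1.43 CPM in that of sham mice, and 30.1 ± 20.3 CPM in CLP venules against 48.4 ± 22 CPM in sham venules. In healthy glomeruli it had 623 ± 170 CPM.

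**Figure D3:**
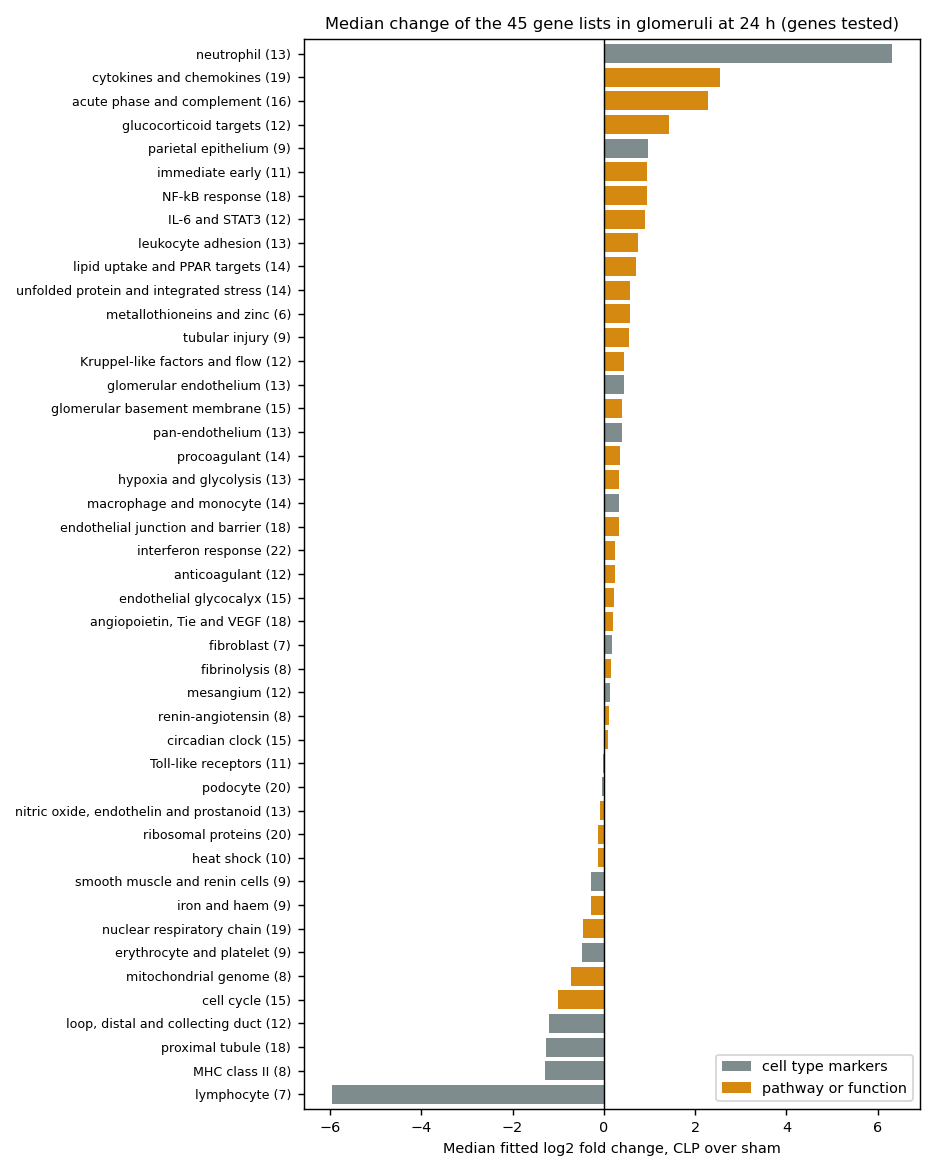
Median fitted log2 fold change (CLP over sham) of the 45 gene lists, with the number of genes tested in parentheses; grey bars are cell type markers and orange bars pathways. Neutrophil genes (6.32) and cytokines and chemokines (2.55) are at the high end and lymphocyte genes (-5.96) at the low end, and medians of these lists rest partly on genes at 0 in a whole group: with those at their bound the medians are 4.70, 2.77 and -2.14.

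The cells of the glomerular filter itself gave little that passed. None of 20 podocyte genes passed in edgeR's quasi-likelihood test, 2 had an unadjusted p under 0.05, DESeq2 called 1 and limma voom called none. The median was -0.04, as for all genes, with 9 positive and 11 negative fold changes, and it lay between -0.19 (without CLP replicate 2) and 0.07 (without sham replicate 3). The podocyte sum was 12390, 15930, 10240 and 12580 CPM in CLP glomeruli and 12250, 12210, 15710 and 12240 CPM in sham glomeruli, and the groups overlapped. Nphs1, which encodes nephrin of the slit diaphragm, had 331, 2620, 1290 and 729 CPM in CLP glomeruli against 546, 846, 338 and 362 CPM in sham glomeruli (1.25 ± 0.72, adjusted p = 0.555). CLP replicates 2 and 3 were above all sham mice and CLP replicate 1 was below all of them, so the groups overlapped. Wt1, the transcription factor that keeps podocyte identity, had 348, 309, 345 and 208 CPM in CLP glomeruli against 286, 328, 345 and 334 CPM in sham glomeruli (-0.10 ± 0.31).

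Glomerular endothelial markers had higher summed levels in CLP glomeruli, without a passing gene. The summed level of 13 genes was 8776, 9710, 8289 and 8294 CPM in CLP glomeruli and 5903, 7259, 7552 and 6230 CPM in sham glomeruli, so the sums did not overlap. Such a separation was not particular to endothelium. Sums of interferon response genes (2221 to 4490 CPM in CLP and 1495 to 1782 CPM in sham) did not overlap either, while those of other lists, such as podocyte genes, did. Of the 13, 11 had positive fold changes (median 0.43), and 3 had non-overlapping groups upward, against 1.44% of all genes tested. None passed in edgeR's quasi-likelihood test, and 4 were higher and 1 lower at an unadjusted p under 0.05. DESeq2 called 2 of these markers and limma voom 1. Markers shared by all endothelium moved with them: 12 of 13 had positive fold changes (median 0.39), none passed in edgeR's quasi-likelihood test, 1 had an unadjusted p under 0.05, DESeq2 called 1 and limma voom none, and their sums were 3129 to 3862 CPM in CLP glomeruli and 2099 to 2657 CPM in sham glomeruli. In the same libraries the proximal tubule sum had a median of 15840 CPM in CLP and 26970 CPM in sham, and its part in the endothelial sums was not tested. Kdr, the main VEGF receptor, had 1860, 1750, 2170 and 2040 CPM in CLP glomeruli and 1140, 1470, 1720 and 1480 CPM in sham glomeruli (0.43 ± 0.26, adjusted p = 0.581). Flt1, the other VEGF receptor of endothelium, had 456, 613, 465 and 775 CPM in CLP glomeruli and 396, 385, 371 and 219 CPM in sham glomeruli (0.75 ± 0.28, adjusted p = 0.332). In both receptors each CLP mouse was above each sham mouse although neither passed. Lpl, the lipoprotein lipase, had a change of 0.76 ± 0.26 (adjusted p = 0.315), and Ehd3, an endocytic protein of glomerular endothelium, 0.14 ± 0.31.

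Basement membrane genes likewise had higher sums, 4987 to 6852 CPM in CLP glomeruli and 3625 to 4267 CPM in sham glomeruli. Col4a1, a chain of type IV collagen, had 1420, 1400, 1120 and 1320 CPM in CLP glomeruli and 586, 814, 753 and 798 CPM in sham glomeruli (0.83 ± 0.23, adjusted p = 0.165). Its partner chain Col4a2 had 607, 788, 697 and 814 CPM in CLP glomeruli and 358, 419, 399 and 288 CPM in sham glomeruli (0.99 ± 0.29, adjusted p = 0.197). The 4 CLP mice were close together and all above the sham mice in both genes. Of 15 measured basement membrane genes 13 had positive fold changes (median 0.40), and none passed in edgeR's quasi-likelihood test, with 2 at an unadjusted p under 0.05, 2 called by DESeq2 and 2 by limma voom. Their median was 0.23 without CLP replicate 3 and 0.11 with limma voom. The 12 measured mesangial markers were divided, with 7 positive and 5 negative fold changes between -1.27 and 1, a median of 0.14 that was -0.21 without CLP replicate 1, no passing gene, and 3 higher and 1 lower at an unadjusted p under 0.05, while DESeq2 called 2 and limma voom none. The highest of them, Cald1, a contractile protein, had 1210, 3510, 2710 and 1570 CPM in CLP glomeruli against 1010, 1220, 1120 and 1130 CPM in sham glomeruli (1.00 ± 0.26, adjusted p = 0.13).

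Coagulation genes were listed because sepsis is known to activate clotting in small vessels. None of 14 measured procoagulant, 12 anticoagulant and 8 fibrinolysis genes passed in edgeR's quasi-likelihood test. Their median log2 fold changes were 0.35, 0.24 and 0.16, 3, 5 and 1 of them had an unadjusted p under 0.05, DESeq2 called 2, 4 and 0, and limma voom called 1, 0 and 0. F3, the tissue factor gene, was among the 7 procoagulant genes below the count filter. Thbd, the thrombin receptor thrombomodulin, had 32.6, 55.1, 57 and 197 CPM in CLP glomeruli and 29.3, 4.08, 85.7 and 75.2 CPM in sham glomeruli (0.81 ± 0.55, adjusted p = 0.682), and its sign turned to -0.04 without CLP replicate 4. Entpd1, an ectoenzyme that removes platelet-activating nucleotides, had 54.5, 98, 69.5 and 87.6 CPM in CLP glomeruli against 17.6, 3.55, 0 and 13 CPM in sham glomeruli. All CLP mice were above all sham mice, but the change of 3.18 ± 1.17 did not pass (adjusted p = 0.332). Serpine2, a protease inhibitor that blocks thrombin, had a change of 0.90 ± 0.30 (adjusted p = 0.303), and Plat, tissue plasminogen activator, had 139, 87.7, 232 and 290 CPM in CLP glomeruli against 77.2, 91.6, 113 and 68.1 CPM in sham glomeruli (1.10 ± 0.46, adjusted p = 0.333). The procoagulant median was -0.19 without CLP replicate 4 and 0.76 without CLP replicate 3, the anticoagulant median was -0.18 without CLP replicate 1 and 0.78 without sham replicate 4, and the fibrinolysis median was -0.11 without CLP replicate 4 and 0.35 without sham replicate 2. None of these 3 medians therefore kept its sign with every mouse left out. The anticoagulant sums did not overlap, at 1436 to 2555 CPM in CLP glomeruli and 1062 to 1414 CPM in sham glomeruli. The procoagulant sums (280.3 to 926.5 CPM in CLP and 207.6 to 281.9 CPM in sham) and the fibrinolysis sums (1038 to 2333 CPM and 877.3 to 1542 CPM) overlapped.

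Several signalling lists had positive medians without a passing gene in edgeR's quasi-likelihood test. All 12 measured glucocorticoid targets had positive fold changes (median 1.43), 5 of them with an unadjusted p under 0.05, and DESeq2 called 3 and limma voom none. Tsc22d3, which encodes the anti-inflammatory mediator GILZ, had 226, 171, 77.2 and 501 CPM in CLP glomeruli against 114, 81.4, 64.2 and 98.3 CPM in sham glomeruli (1.45 ± 0.39, adjusted p = 0.153). Sgk1, a kinase of ion transport and survival, had 396, 423, 436 and 440 CPM in CLP glomeruli and 124, 201, 279 and 169 CPM in sham glomeruli (1.13 ± 0.34, adjusted p = 0.233). The CLP values of Sgk1 were all above the sham values, while those of Tsc22d3 overlapped them in CLP replicate 3. The glucocorticoid median was 0.69 without CLP replicate 4. Of 18 measured NF-kB response genes 14 had positive fold changes (median 0.94), 4 with an unadjusted p under 0.05, and DESeq2 called 2 and limma voom none. Stat3, the transcription factor of IL-6 signalling, had 342, 396, 331 and 737 CPM in CLP glomeruli and 248, 187, 256 and 267 CPM in sham glomeruli (0.92 ± 0.29, adjusted p = 0.287).

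Transcripts of the mitochondrial genome had a median log2 fold change of -0.71 over 8 measured genes. Of these 7 had negative fold changes, 5 had an unadjusted p under 0.05, none passed in edgeR's quasi-likelihood test, DESeq2 called 1 and limma voom called 2. They summed to 37820, 32760, 54210 and 30940 CPM in CLP glomeruli and 72040, 73660, 50590 and 64460 CPM in sham glomeruli. The sums overlapped through CLP replicate 3. That library held the most proximal tubule RNA of the CLP group and also had the fewest counts and the fewest genes detected. The part of these in the mitochondrial sums was not tested.

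Set against 4 h, the change at 24 h differed in 1 gene of 14586 (0.00686%), the metallothionein Mt1, which binds zinc and copper. At 4 h Mt1 had 10500 ± 4330 CPM in CLP glomeruli and 966 ± 140 CPM in sham glomeruli (3.45 ± 0.30, adjusted p = 9.66e-11). At 24 h it had 579, 320, 670 and 921 CPM in CLP glomeruli and 372, 443, 210 and 345 CPM in sham glomeruli, overlapping groups with a change of 0.86 ± 0.28 (adjusted p = 0.291). The change at 24 h was smaller than that at 4 h by 2.58 ± 0.40 log2 units, written as -2.58 (adjusted p = 0.000744). The related Mt2 had 10800 ± 5320 CPM in CLP and 625 ± 233 CPM in sham glomeruli at 4 h, and 76.6, 100, 184 and 1300 CPM in CLP against 256, 218, 155 and 163 CPM in sham glomeruli at 24 h. The difference between its changes, -3.03, did not pass (adjusted p = 0.403). At an unadjusted p under 0.05 the changes at 24 and 4 h differed for 1105 genes (7.58%).

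Of the 20 genes passing at 24 h, 17 had the same direction at 4 h and 15 at 72 h. At 4 h 16 genes passed in all (0.110%), 13 higher (0.0891%) and 3 lower (0.0206%), and Sele, Nupr1 and Ngp were among them. Sele had 123 ± 39.4 CPM in CLP and 0.0632 ± 0.0736 CPM in sham glomeruli at 4 h, and 4.76 ± 6.92 CPM in CLP against 0 CPM in sham glomeruli at 72 h. Nupr1 had 705 ± 270 CPM in CLP and 237 ± 86.2 CPM in sham glomeruli at 4 h, and 389 ± 100 CPM in CLP and 320 ± 80.1 CPM in sham glomeruli at 72 h. Neither passed at 72 h, with adjusted p of 0.242 for Sele and 1 for Nupr1. Ngp had 98.1 ± 42.1 CPM in CLP glomeruli at 4 h and 181 ± 42.9 CPM at 72 h, against 0.159 ± 0.185 and 0 CPM in sham glomeruli at those times. It was the 1 gene of the 20 to pass at 72 h as well (adjusted p = 0.000133), where 5 genes passed in all (0.0343%), 2 higher (0.0137%) and 3 lower (0.0206%). The neutrophil sum over the list was 1633 to 3251 CPM in CLP glomeruli at 4 h, 1131 to 2822 CPM at 24 h and 3854 to 5900 CPM at 72 h.

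C3 and Fgg had their highest CLP means at 24 h. Libraries differed between times: 12897 to 14164 genes were detected in healthy glomeruli and 13582 to 15114 at 4 h. At 24 h 8870 to 12726 were detected, and at 72 h 10836 to 12646. The part of this difference in levels compared across times was not tested. C3 had 236 ± 57.5 CPM in CLP and 162 ± 37.5 CPM in sham glomeruli at 4 h, and 416 ± 205 CPM in CLP and 148 ± 82.9 CPM in sham glomeruli at 72 h, against 171 ± 121 CPM in healthy glomeruli. Fgg had 8.05 ± 9.58 CPM in CLP and 5.57 ± 10.7 CPM in sham glomeruli at 4 h, and 8.6 ± 14.8 CPM in CLP and 7.09 ± 8.78 CPM in sham glomeruli at 72 h. The difference of changes between 24 and 4 h did not pass for C3 (1.82, adjusted p = 0.403) or Fgg (adjusted p = 0.392). Against 72 h no gene differed in edgeR's quasi-likelihood test, 1506 genes (10.3%) had an unadjusted p under 0.05, and this comparison was not run in DESeq2 or limma. Slc17a3, which fell at 24 h, had 91.5 ± 16.5 CPM in CLP and 78.6 ± 31.6 CPM in sham glomeruli at 4 h, and 46 ± 31.5 CPM in CLP and 38.7 ± 27.8 CPM in sham glomeruli at 72 h.

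**Figure D4:**
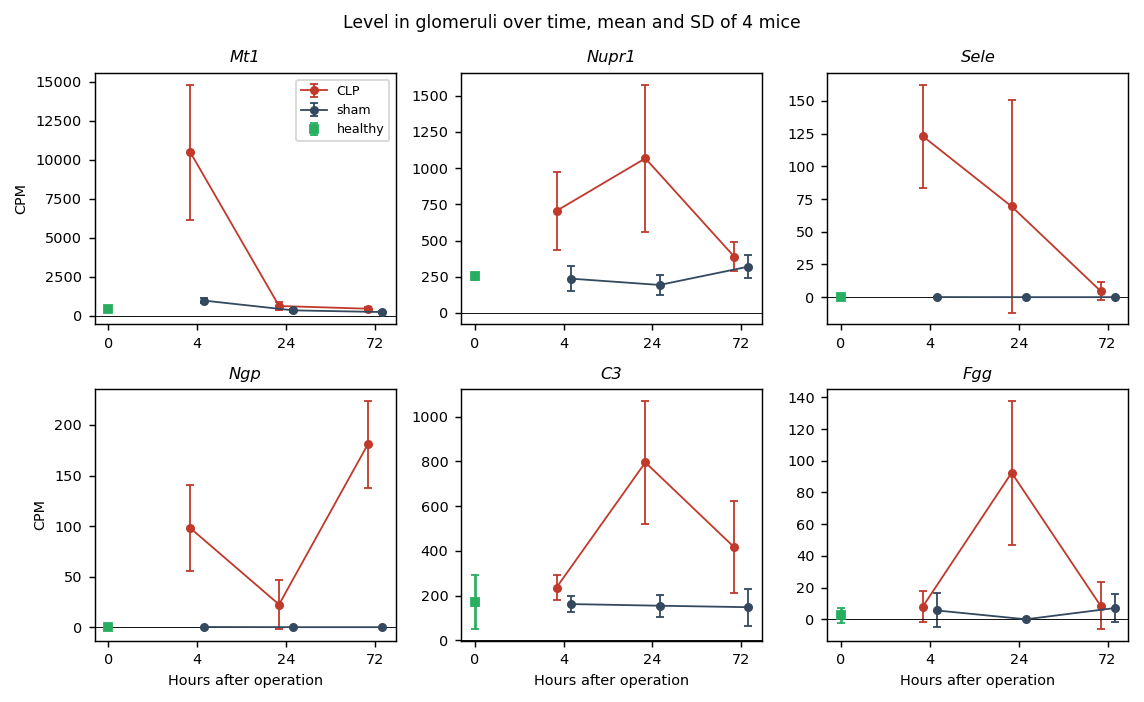
CPM of 6 genes in glomeruli by time in hours (0, 4, 24 and 72, evenly spaced and not to scale), as mean and SD of 4 CLP, 4 sham or 4 healthy mice; each axis is linear. Mt1 in CLP mice peaks at 4 h near 10500 CPM, while C3 averages 795 CPM and Fgg 92.4 CPM in CLP mice at 24 h, above their 4 h and 72 h means.

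The change in glomeruli was compared with the mean change in arterioles, peritubular capillaries and post-capillary venules of the same 8 mice, with the mouse as a block. It differed in 2 of 13635 genes (0.0147%), and 339 genes (2.49%) had an unadjusted p under 0.05. Hbb-bt, a beta-globin of red cells, had 507, 361, 317 and 580 CPM in CLP glomeruli and 794, 973, 598 and 483 CPM in sham glomeruli. In the other compartments it had 0 CPM in CLP peritubular capillaries against 39.5 ± 23.1 CPM in sham, 724 ± 622 CPM in CLP arterioles against 1100 ± 423 CPM in sham, and 1800 ± 920 CPM in CLP venules against 2850 ± 675 CPM in sham. Its levels were thus lower on average in CLP everywhere, and the fitted difference of 3.83 (adjusted p = 2.59e-07) rests on peritubular capillaries at 0 and is no bound. Hbb-bt is nearly identical to Hbb-bs, and how the authors' counting split reads between the 2 copies is not given. Nat8f1, an N-acetyltransferase family member, had 386, 124, 354 and 37.1 CPM in CLP glomeruli and 471, 581, 438 and 399 CPM in sham glomeruli, all CLP mice below all sham mice. It had 0.0178 ± 0.0356 CPM in CLP arterioles against 139 ± 91.4 CPM in sham, 714 ± 865 CPM in CLP peritubular capillaries against 1920 ± 685 CPM in sham, and 409 ± 77.9 CPM in CLP venules against 842 ± 221 CPM in sham. The fitted difference of 3.49 (adjusted p = 0.000809) likewise rests on arterioles near 0, and reads may be shared with its paralogs. Hbb-bt passed with each mouse left out, while Nat8f1 lost its call without any of sham replicates 1 (0.169), 2 (0.0713), 3 (0.193) and 4 (0.111).

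None of the 20 genes passing in glomeruli was among these, so their changes were not shown to differ from those of the other vessels. C3, for example, had 204 ± 157 CPM in CLP arterioles against 59 ± 57.9 CPM in sham, 273 ± 134 CPM in CLP peritubular capillaries against 7.27 ± 14.5 CPM in sham, and 384 ± 118 CPM in CLP venules against 60.2 ± 33.4 CPM in sham. Saa3 had 348 ± 305 CPM in CLP arterioles against 2.46 ± 4.85 CPM in sham, 62 ± 61.1 CPM in CLP peritubular capillaries and 368 ± 240 CPM in CLP venules, against 0 CPM in sham libraries of both. Sele was detected in CLP arterioles (33 ± 43.6 CPM) and was at 0 in peritubular capillaries and venules of both groups. Nupr1 had a level in glomeruli far above that in the other vessels, with 8.75 ± 11.6 CPM in CLP arterioles against 8.32 ± 14 CPM in sham, 19.6 ± 39.1 CPM in CLP peritubular capillaries against 0 CPM in sham, and 17.6 ± 29.6 CPM in CLP venules against 16.8 ± 17.8 CPM in sham. The difference between the Nupr1 change in glomeruli and elsewhere did not pass (0.30 ± 1.18, adjusted p = 1).

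Against whole kidney of the same mice the change differed in 2 of 14042 genes (0.0142%), 1 in each direction (0.00712% each), and 547 genes (3.90%) had an unadjusted p under 0.05. Acsm1 was at 0 in CLP glomeruli while whole kidney kept 78.3 ± 13.3 CPM in CLP mice, against 136 ± 10.5 CPM in sham mice. Fgg was at 0 in sham glomeruli, and in whole kidney it had 679 ± 556 CPM in CLP mice and 10.3 ± 2.07 CPM in sham mice, so its CLP values were the higher ones in both tissues. The fitted differences, -10.48 for Acsm1 and 6.68 for Fgg (adjusted p = 0.0038 for each), come from groups at 0 in glomeruli and are no bounds. Both passed with each of the 8 mice left out.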

How the data were processed

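Gene counts from 3′ sequencing (Lexogen QuantSeq) of glomeruli cut by laser microdissection were analysed for 4 CLP and 4 sham mice at 24 h. The authors deposited whole-number counts per gene for all 140 libraries, and the submitters' processing notes list STAR 2.7, featureCounts, HTSeq 0.13, SAMtools 1.9, FastQC 0.11.8 and MultiQC 1.7, and builds GRCm38.p6 and GRCm39, all without roles; use of strand in counting is not given in the sources used here. Of 34255 genes, 34193 had a position in GENCODE M21 (GRCm38), whose coordinates are printed. Libraries held 4.24 to 18.33 M counts, and floors of 3 counts cover counting error only.

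Counts of the 28 glomerular libraries were fitted with edgeR 4.0.16 (R 4.3.3, TMM scaling, filterByExpr, robust quasi-likelihood test, 1 term per group and time, Benjamini-Hochberg adjustment over all genes tested), and CLP was set against sham at 24 h and against the same change at 4 and 72 h. Changes in glomeruli and in other compartments were compared in models with the mouse as a block. Each replicate was a separate mouse. Alternatives were DESeq2 1.42.0, limma 3.58.1 (voom with quality weights), other scalings, no filter, fewer libraries, a replicate block and leaving out each mouse. The method was tested on simulated data with known changes. Genes in the text were drawn from those that passed, up to 10 in each direction with the smallest p among non-overlapping groups, and up to 4 members of each list by smallest p. Further sources were the measured members of the coagulation, adhesion, podocyte and glomerular endothelium lists, and the 6 smallest p of each other comparison. Not all of these are printed, so which of them appear was a further choice. The 8 libraries and the gene lists were chosen with earlier results of these data known. Same-numbered mice of the 2 groups were not paired in the labels.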

Additional observations from a re-analysis of the deposited data

Results flagged for a closer look

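Among 152 groups of 4 values examined for a sample far from the others by Dixon's test, 11 had one, and chance flags about 1 in 20 groups. CLP replicate 4 was the highest for Fga (194 CPM), Cxcl1 (279 CPM), Thbd (197 CPM), Mt2 (1300 CPM) and Stat3 (737 CPM). CLP replicate 2 was the highest for S100a8 (1470 CPM). Sham replicate 4 was the lowest for Flt1 (219 CPM) and the highest for Cd74 (134 CPM). Sham replicate 2 was the highest for Retnlg (0.658 CPM, the other sham libraries being at 0) and had the lowest depth of its group (8.01 M counts). Sham replicate 3 had the highest summed podocyte level of its group (15710 CPM).

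Changes with CLP that differed between times or tissues, by a test of the difference itself, were those of Mt1 between 24 and 4 h (-2.58), of Hbb-bt (3.83) and Nat8f1 (3.49) between glomeruli and the other vessels, and of Acsm1 (-10.48) and Fgg (6.68) between glomeruli and whole kidney, all as log2 differences from edgeR's quasi-likelihood test. Those of Hbb-bt, Nat8f1, Acsm1 and Fgg rest on groups at or near 0.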

How the results depend on the processing

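All 20 passing genes kept their direction under the alternatives run, and 5 (Ngp, Nupr1, Cp, Ifitm3 and Angptl2) passed with each of the 8 mice left out in turn. The count of 20 was 101 with no filter on low counts (54 higher and 47 lower), 973 with DESeq2 (380 and 593), 61 with limma voom (33 and 28), 6 with the 8 libraries of 24 h alone, 9 with those and a replicate block, and 8 with the 16 libraries of 24 and 72 h. With the replicate block in the fit of 28 libraries it was 21 (14 and 7), the 2 groups' same-numbered mice correlating at -0.013 to 0.050. It was 22 with DESeq2's size factors and 18 with TMMwsp scaling. DESeq2 called all 20 and limma voom 10 of them, 4 held with the 8 libraries alone, 6 with their replicate block and 7 with the 16 libraries. With 1 mouse left out it lay between 10 (without sham replicate 1, 3 or 4) and 67 (without CLP replicate 1), with 11 without CLP replicate 2 and 13 without sham replicate 2. With no filter, the differences were 21 against 4 h, 32 against 72 h, 7 against the other vessels and 4 against whole kidney. With 1 mouse left out they were 1 to 5, 0 to 7, 5 to 20 and 2 to 15. The cause was not tested.

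Of 52 other named genes, 29 passed under DESeq2, 19 under no alternative, and 7 changed sign. With 1 mouse left out, log2 fold changes lay between -0.74 (without CLP replicate 4) and 1.44 for Mt2, -0.43 (without CLP replicate 4) and 3.63 for Fga, 0.03 (without CLP replicate 4) and -0.19 for Wt1, -0.04 (without CLP replicate 4) and 1.24 for Thbd, -0.17 (without CLP replicate 2) and 0.43 for Synpo, -0.09 (without CLP replicate 2) and 0.33 for Ehd3, and 0.02 (without CLP replicate 3) and -0.66 for Podxl. With limma voom they were -0.08 for Synpo and -0.09 for Ehd3, and with the 8 libraries and a replicate block -0.06 for Mt2. The spread between libraries within groups was large (edgeR's biological coefficient of variation 1.4, over the 28 glomerular libraries of all times). With 1 glomerular library per mouse, it cannot separate differences between mice from technical spread. Depth limits what could be seen for genes near the floors.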

Other observations

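Genes of lipid uptake and PPAR signalling, a list written after such genes had been seen to move, summed to 2059 to 3547 CPM in CLP glomeruli and 1451 to 1785 CPM in sham glomeruli. Of 14 measured, 12 had positive fold changes (median 0.70) and none passed in edgeR's quasi-likelihood test, with 3 at an unadjusted p under 0.05, 1 called by DESeq2 and 1 by limma voom. Genes of hypoxia and glycolysis summed to 1178 to 1386 CPM in CLP glomeruli and 737.9 to 1020 CPM in sham glomeruli, without overlap, and 10 of 13 had positive fold changes (median 0.33, or 0.23 without sham replicate 2 and 0.59 without CLP replicate 4). None of these passed, 2 had an unadjusted p under 0.05, and neither DESeq2 nor limma voom called any.

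Ribosomal protein genes had overlapping sums of 9287 to 10280 CPM in CLP glomeruli and 8589 to 10570 CPM in sham glomeruli and a median of -0.13 over 20 genes (-0.19 to -0.07 with 1 mouse left out). Erythrocyte and platelet genes summed to 3429 to 9260 CPM in CLP glomeruli and 7064 to 11060 CPM in sham glomeruli (median -0.47 over 9 genes, or -0.06 without sham replicate 2 and -0.77 without CLP replicate 4). Toll-like receptor genes had a median of -0.02 over 11 measured members, which was -0.37 without sham replicate 1 and 0.34 without CLP replicate 3.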
